A study of Mus musculus with 6 samples.

Results

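The report covers 10 genes of the p53 response that bear on cell-cycle arrest, measured by bulk RNA-seq in sorted mouse leukemia cells: Trp53 itself, its inhibitors Mdm2 and Mdm4, and the target genes Cdkn1a, Ccng1, Zmat3, Gadd45a, Btg2, Plk2 and Trp53inp1. They were listed by gene name, with earlier results of these data known, and each had 1 row among the 53618 named rows of the expression table. Of the 10, 9 passed the filter on low values that left 12298 genes for testing, and Plk2 did not. The samples were GFP+Lin-c-Kit+ splenocytes from recipients of Usp18+/f UBCER-Cre AE9a leukemia cells, 3 mice injected with oil and 3 injected with tamoxifen after they had become sick, with 1 library per mouse made 3 days after the first injection. AE9a is a truncated AML1-ETO fusion oncoprotein that drives acute myeloid leukemia in mice, and GFP marks the cells transduced with the retrovirus that carries it. The libraries of the oil group are labelled Usp18+/f and those of the tamoxifen group Usp18+/Δ. Both groups carried AE9a and Cre, and the floxed allele before the injections. Per the study's methods the leukemia arose from transduced fetal liver cells and was passed through irradiated recipients, and UBCER-Cre is a tamoxifen-activated recombinase under a ubiquitous promoter, so it is not restricted to 1 lineage of the transplanted cells. No library from tamoxifen-treated mice without a floxed allele is part of the comparison. Effects of tamoxifen, of the Cre that it activates and of the deletion therefore cannot be told apart. The labels give no age, and the study's methods describe its mice as young adults, males and females alike.

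p53 is a transcription factor that is held at a low level by Mdm2, an E3 ubiquitin ligase that marks it for degradation, and by Mdm4, which binds its activation domain. DNA damage and other stresses release p53 from these inhibitors, mostly by modification of the proteins and not by more Trp53 mRNA. Freed p53 binds pairs of a short decamer in the promoters or first introns of its targets, among them Cdkn1a, whose product p21 inhibits cyclin-dependent kinases and stops the cell cycle, and Mdm2 itself, which closes a feedback loop. In acute myeloid leukemia p53 limits the growth and the chemotherapy resistance of the leukemic cells.

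In the tamoxifen group, Cdkn1a was 3.78-fold, Zmat3 2.25-fold, Gadd45a 1.75-fold and Mdm2 1.30-fold higher by the ratio of group means, with each tamoxifen library above each oil library, while Trp53 itself was 1.08-fold higher. Trp53inp1 was 2.59-fold higher in the means, with 1 tamoxifen library inside the range of the oil group. Mdm4, Ccng1 and Btg2 had overlapping groups, and Plk2 had reads only in the tamoxifen libraries. Limma over the 6 libraries called none of the 9 tested members at an adjusted p under 0.05, and 0 of 12298 genes in all (0%), so none of these differences was called. With the library tamoxifen 1 left out, limma called Cdkn1a, Zmat3 and Trp53inp1, where 0.309% of all tested genes were called higher. DESeq2 on the reads of all 6 libraries called Cdkn1a and Zmat3, where 0.285% of its 24246 genes were called higher. That larger set was taken without the filter on low values.

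Values below are normalized counts, that is, the reads of a gene after each library was scaled by its own size factor. The depth was 19172471 to 23785143 reads per library. Tamoxifen 1 stood apart: its median Pearson correlation with the other libraries was 0.913, against 0.981 to 0.990 for the other 5. Its share of mitochondrial reads was 0.00923%, against 1.01% to 1.56%. Its deviations from the median of all libraries followed the GC content of the genes (Spearman's rho 0.69 across genes, which are not independent, against -0.22 to -0.00098 in the other libraries). Usp18, the targeted gene, had 217, 214 and 176 normalized counts in the oil libraries and 477, 329 and 284 in the tamoxifen libraries, so its level went against the label of a depleted gene (log2 fold change 0.81, SE 0.25, limma adjusted p = 0.67), and the groups are therefore named by the injection. A read count over the whole gene does not show whether the floxed part was removed. Kit, the sorting marker, had 7512 to 8990 normalized counts in the oil libraries and 4687 to 10976 in the tamoxifen libraries. Of the other progenitor markers, Cd34 overlapped fully, with 288 to 843 and 200.7 to 1052. Runx1 and Myb did not overlap. Runx1 had 11592 to 12791 in the oil and 9996 to 11220 in the tamoxifen libraries, and Myb had 5328 to 6692 and 3097 to 5188. The granule genes of later myeloid progenitors were low but higher in the tamoxifen libraries: Elane had at most 1.86 in the oil libraries and up to 11.1 in the tamoxifen libraries, each above the oil range, and Mpo had 0 to 4.64 and 6.39 to 20.2. Ctsg had 51.1 to 90.1 and 75.8 to 188, which overlap. The part of these shifts in the members' differences was not tested.

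Markers of other cells that such a sort could hold were summed per library. The 12 macrophage markers summed to 94.7 to 207 normalized counts in the oil libraries and to 231 to 309 in the tamoxifen libraries, with all 7 tested markers higher and Vsig4 at 0 in each library. The 8 neutrophil markers summed to 14.4 to 27.0 and 40.0 to 67.7, with Ly6g at 0, but the 1 marker of this list that passed the filter was lower in the tamoxifen group. The 5 NK cell markers summed to 58.9 to 159 and 193 to 661, but Ncr1, Klrb1c, Klrd1 and Eomes were at 0 throughout, so the sum was Nkg7 alone. The 7 T cell markers summed to 37.6 to 65.9 and 32.7 to 98.4, with Cd3e, Cd8a and Cd8b1 at 0. The 5 erythroid markers summed to 46961 to 66188 and 51970 to 82717. The macrophage and neutrophil sums and Nkg7 were thus higher in the tamoxifen group, without overlap, as were several members, and their part in the members' differences was not tested. In bulk libraries, more cells that express a gene and more RNA per cell cannot be told apart.

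Promoter sequence was looked at first, because p53 acts on these genes through DNA. RefSeq windows (GRCm38.p6) from 250 bases before to 50 bases after an annotated start site were matched by symbol for 8 of the 10 members, in 10 windows. Zmat3 and Trp53inp1 had no entry. The p53 decamer consensus, which is its own reverse complement and so reads the same on both strands, was found in 5 windows of 5 members (Trp53, Mdm2, Cdkn1a, Ccng1 and Gadd45a), against 8.36% of all 32851 windows. It was not found in the windows of Mdm4, Btg2 and Plk2 or in the second window of Cdkn1a. Only exact matches to the consensus were counted. By these, only the first Cdkn1a window held 2 decamers close enough to form a full site (at most 13 bases between them), which 0.0731% of all windows did. In that window, the more upstream of the 2 for Cdkn1a, the decamers began 73 and 51 bases before its start site. They had 12 bases between them. The first Cdkn1a window is chr17:29090729-29091028, plus strand, 300 bases, with the exact decamers in capitals. The 10 bases right after the second decamer, tgacatgttc, depart from the consensus only at their first base and so are not in capitals. Which of these stretches p53 binds was not tested.
Cdkn1a: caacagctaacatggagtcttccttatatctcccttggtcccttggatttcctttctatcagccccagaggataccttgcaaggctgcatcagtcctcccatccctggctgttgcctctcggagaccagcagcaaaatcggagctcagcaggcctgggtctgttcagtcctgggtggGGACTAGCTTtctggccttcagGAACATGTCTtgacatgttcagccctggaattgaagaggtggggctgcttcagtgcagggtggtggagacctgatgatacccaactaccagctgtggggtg

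The single decamers of the other members are shown in capitals inside 60 bases each, to set them beside the Cdkn1a pair. The Trp53 stretch is chr11:69580259-69580318 on the plus strand, the Mdm2 stretch chr10:117710910-117710969 on the minus strand, the Ccng1 stretch chr11:40755437-40755496 on the minus strand and the Gadd45a stretch chr6:67037413-67037472 on the minus strand.
Trp53: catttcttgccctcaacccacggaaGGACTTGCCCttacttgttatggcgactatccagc
Mdm2: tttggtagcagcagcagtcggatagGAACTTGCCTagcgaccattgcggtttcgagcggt
Ccng1: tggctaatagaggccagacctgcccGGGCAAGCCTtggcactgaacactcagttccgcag
Gadd45a: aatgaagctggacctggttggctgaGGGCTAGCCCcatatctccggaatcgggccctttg

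The decamers lay 75 bases before the start site in Trp53, 186 in Mdm2, 185 in Ccng1 and 40 in Gadd45a. These matches describe the sequence of the windows. They are not binding data, and a window without a match may have sites elsewhere in the gene.

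Trp53 (ENSMUSG00000059552.13, chr11:69580359-69591873, plus strand in GRCm38) was the most abundant of the members. Its level was 7276, 7984 and 8019 normalized counts in oil 1, 2 and 3, and 8086, 8799 and 8323 in tamoxifen 1, 2 and 3. The groups did not overlap, but the highest oil and the lowest tamoxifen library lay close together. The mean was 7760 ± 419 in oil and 8403 ± 363 in tamoxifen libraries (SD, n = 3 each), and the log2 fold change was 0.12 (SE 0.13, 95% interval -0.19 to 0.42, limma adjusted p = 0.68). With a correction of each library for GC content the log2 fold change was -0.07, so the direction for Trp53 depended on that correction. The mRNA level says nothing of the amount or activity of the p53 protein.

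**Figure D1:**
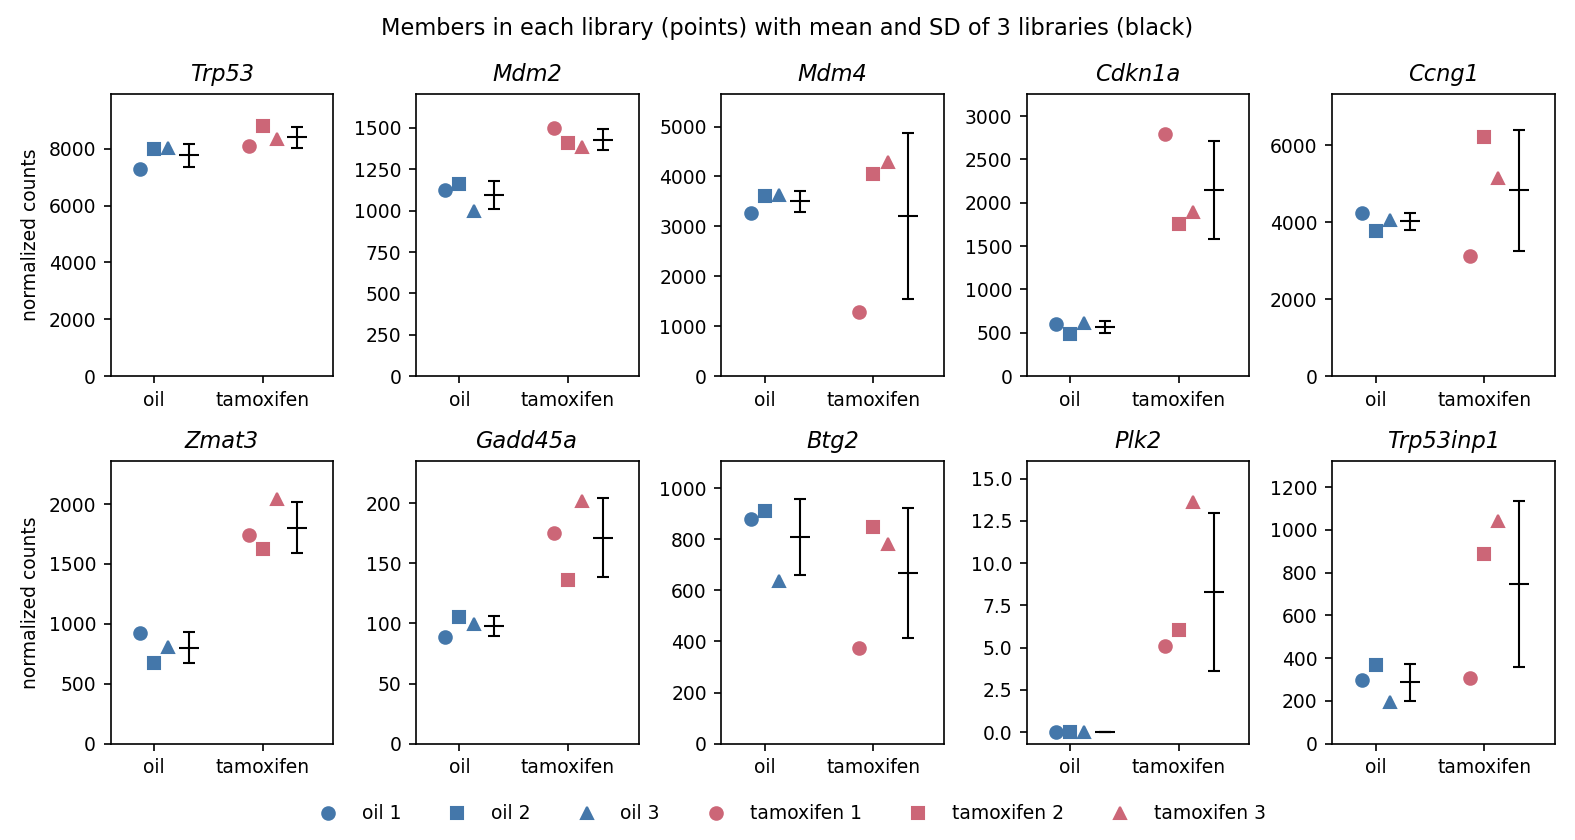
Normalized counts of the 10 members in each of the 6 libraries (vertical axes, linear), with oil libraries in blue and tamoxifen libraries in red; the black bar and whiskers are the mean and SD of the 3 libraries of a group. Cdkn1a, Zmat3, Gadd45a, Mdm2, Plk2 and, narrowly, Trp53 have groups that do not overlap. Tamoxifen 1 (circle) lies far below tamoxifen 2 and 3 for Mdm4, Ccng1, Btg2 and Trp53inp1.

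Mdm2 (ENSMUSG00000020184.15, chr10:117688875-117710758, minus strand), the ligase that degrades p53 and a p53 target, had 1124, 1164 and 1001 normalized counts in the oil libraries and 1500, 1407 and 1383 in the tamoxifen libraries. Each tamoxifen library was above each oil library, and the spread within each group was small. The oil mean was 1096 ± 84.7 and the tamoxifen mean 1430 ± 61.9 (SD, n = 3 each). The log2 fold change was 0.39 (SE 0.14, 95% interval 0.05 to 0.72), with an unadjusted limma p of 0.0300 and an adjusted p of 0.67, which did not pass. Without tamoxifen 1 it was 0.35 (limma adjusted p = 0.18). Of the 31 alternatives, limma with library weights alone called Mdm2, at 0.32 and an adjusted p of 0.0443.

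Mdm4 (chr1:132959484-133030561, minus strand), which inhibits p53 without degrading it by itself, had 3260, 3613 and 3633 normalized counts in the oil libraries and 1287, 4040 and 4296 in the tamoxifen libraries. Tamoxifen 1 was the lowest of all 6 libraries and tamoxifen 2 and 3 were the highest. The log2 fold change was -0.31 (SE 0.46, 95% interval -1.41 to 0.78, limma adjusted p = 0.74), and without tamoxifen 1 it was 0.25 (limma adjusted p = 0.26), so the direction for Mdm4 rested on 1 library. With GC correction it was -0.04. An antisense gene, Gm29257, overlaps Mdm4 over 639 bases. Its level was 2.49 in the oil and 7.00 in the tamoxifen group. Reads of the 2 genes cannot be told apart there, since the strand setting of the counting is not given.

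Ccng1 (chr11:40748552-40755311, minus strand), which encodes cyclin G1, a p53 target that acts back on Mdm2 through a phosphatase, had 4225, 3779 and 4044 normalized counts in the oil libraries. In the tamoxifen libraries it had 3125, 6202 and 5149. Tamoxifen 1 was again the lowest of the 6, and tamoxifen 2 and 3 were above every oil library. The log2 fold change was 0.21 (SE 0.26, 95% interval -0.42 to 0.83, limma adjusted p = 0.70). Without tamoxifen 1 it was 0.49 (limma adjusted p = 0.086; DESeq2 adjusted p = 1.55e-04), and without tamoxifen 2 it was -0.00021. With GC correction over 6 libraries it was 0.60 (limma adjusted p = 0.47).

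Within each library the log2 ratio of Mdm2 to Trp53, which does not depend on how libraries are scaled, was -2.69, -2.78 and -3.00 in the oil libraries and -2.43, -2.64 and -2.59 in the tamoxifen libraries. The groups did not overlap, and the mean difference was 0.27 (exact two-sided permutation p = 0.1, adjusted 0.15 over the 3 ratios). An exact test of 3 libraries against 3 can give no p under 0.1. With GC correction this difference was 0.57. The log2 ratio of Mdm2 to Mdm4 was -1.54, -1.63 and -1.86 in the oil libraries and 0.22, -1.52 and -1.63 in the tamoxifen libraries. Only tamoxifen 1 stood clear of the oil libraries (difference 0.70, exact permutation p = 0.3, and 0.10 without tamoxifen 1).

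Cdkn1a (chr17:29090976-29100727, plus strand), which encodes the cyclin-dependent kinase inhibitor p21, had the largest log2 fold change of the 9 tested members in limma over the 6 libraries, though Trp53inp1 had a larger one without tamoxifen 1 and with GC correction. Its level was 603, 487 and 614 normalized counts in the oil libraries and 2796, 1754 and 1898 in the tamoxifen libraries. The lowest tamoxifen library was well above the highest oil library, and tamoxifen 1 was the highest of all. Oil libraries averaged 568 ± 70.1 and tamoxifen libraries 2149 ± 565 (SD, n = 3 each), and the log2 fold change was 1.90 (SE 0.22, 95% interval 1.36 to 2.43). Its unadjusted limma p of 8.65e-05 ranked 4 among the 12298 genes, and the adjusted p was 0.27. Without tamoxifen 1 the log2 fold change was 1.69 (SE 0.12, limma adjusted p = 0.00118). DESeq2 gave 1.92 (adjusted p = 7.95e-09) and edgeR 1.93 (adjusted p = 0.22) on the reads of the 6 libraries. Cdkn1a was called in 11 of 31 alternatives, with adjusted p values from 5.53e-35 to 0.90 over them.

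The log2 ratio of Cdkn1a to Trp53 within a library was -3.59, -4.03 and -3.71 in the oil libraries and -1.53, -2.33 and -2.13 in the tamoxifen libraries, a difference of 1.78 without overlap (exact permutation p = 0.1, adjusted 0.15). The tamoxifen libraries thus had more Cdkn1a mRNA for the Trp53 mRNA they held.

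Gadd45a (chr6:67035096-67037457, minus strand), whose stress-induced product binds p21 and PCNA and takes part in arrest before mitosis, had 88.9, 105 and 99.4 normalized counts in the oil libraries. It had 175, 136 and 202 in the tamoxifen libraries. The groups did not overlap, and the 3 tamoxifen libraries differed among themselves more than the oil libraries. The log2 fold change was 0.79 (SE 0.23, 95% interval 0.23 to 1.34), with an unadjusted limma p of 0.0125 and an adjusted p of 0.67. Without tamoxifen 1 it was 0.76 (limma adjusted p = 0.19). Gadd45a shares 859 bases with the antisense gene E230016M11Rik, whose level was 20.2 in the oil and 16.2 in the tamoxifen group.

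Btg2 (chr1:134075170-134079120, minus strand), an antiproliferative protein that recruits the mRNA deadenylase complex, had 880, 909 and 636 normalized counts in the oil libraries and 376, 848 and 780 in the tamoxifen libraries. Tamoxifen 1 was the lowest, and the other tamoxifen libraries lay inside the oil range. The log2 fold change was -0.34 (SE 0.34, 95% interval -1.17 to 0.48, limma adjusted p = 0.67), and 0.03 without tamoxifen 1.

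Plk2 (chr13:110395046-110400844, plus strand), a polo-like kinase of the centrosome cycle that p53 can induce, was near the limit of detection. It had 0 reads in each oil library, and 4, 6 and 15 reads in tamoxifen 1, 2 and 3 (5.11, 6.06 and 13.6 normalized counts). Against the highest level that 3 reads would have had in an oil library, 2.89 normalized counts, the tamoxifen mean was at least 2.86-fold higher. This floor covers counting error only. Without the filter on low values the limma adjusted p was 0.48, and DESeq2 gave 0.073, so Plk2 was not called by either. Its absence from the oil libraries at this depth does not show that the gene was silent.

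Zmat3 (chr3:32334792-32366014, minus strand), a p53 target whose zinc finger protein binds RNA and acts on splicing and mRNA stability, had 927, 674 and 806 normalized counts in the oil libraries and 1738, 1628 and 2039 in the tamoxifen libraries. Every tamoxifen library was far above the oil range, tamoxifen 1 between the other two. Oil libraries averaged 802 ± 126 and tamoxifen libraries 1802 ± 213 (SD, n = 3 each), and the log2 fold change was 1.17 (SE 0.18, 95% interval 0.74 to 1.60). The unadjusted limma p of 4.35e-04 ranked 12, and the adjusted p was 0.43. Without tamoxifen 1 the log2 fold change was 1.19 (limma adjusted p = 0.00808), and DESeq2 on 6 libraries gave 1.17 (adjusted p = 3.36e-04). The DESeq2 call was lost without oil 2, oil 3 or tamoxifen 3, with adjusted p values of 0.22, 0.14 and 0.071.

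Trp53inp1 (chr4:11156431-11174379, plus strand), a stress-induced p53 target that acts in autophagy and cell death and enhances p53 activity, had 298, 368 and 197 normalized counts in the oil libraries. It had 305, 886 and 1043 in the tamoxifen libraries. Tamoxifen 1 lay inside the oil range and the other tamoxifen libraries lay well above it. The log2 fold change was 1.23 (SE 0.50, 95% interval 0.04 to 2.43, limma adjusted p = 0.67) and without tamoxifen 1 it was 1.78 (SE 0.22, limma adjusted p = 0.0100). Its GC-corrected value over 6 libraries was 1.77 (limma adjusted p = 0.12).

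The counts that follow describe genes chosen with earlier results known, so the shares of all tested genes beside them are a background and not a test. In all, 7 of the 9 tested members were higher in the tamoxifen group and 2 were lower, with a median log2 fold change of 0.39, against -0.02 over all tested genes. Of the 9, 5 had an unadjusted limma p under 0.05, all higher (Cdkn1a, Zmat3, Gadd45a, Mdm2 and Trp53inp1). Of all tested genes, 3.23% did in that direction and 1.24% in the other. Without oil 1 this limma count was 2 members (324 of all tested genes, either direction), and without tamoxifen 1 it was 7 (1488). Without oil 2, oil 3, tamoxifen 2 or tamoxifen 3 it was 3. Groups did not overlap for 5 of the 9 tested members, or 6 of 10 with Plk2, all with the tamoxifen libraries higher, against 7.86% of all tested genes higher and 9.69% lower. Without tamoxifen 1 this held for 8 of the 9 tested members, against 12.6% of tested genes. DESeq2 called 2 members (0.285% of its 24246 genes, taken without the filter on low values, were called higher). Limma without tamoxifen 1 called 3 (0.309% of the 12298 genes that passed the filter). Limma with GC correction called Cdkn1a alone (0.0163%). Limma with library weights called 6 members, namely Cdkn1a, Zmat3, Trp53inp1, Gadd45a, Mdm2 and Ccng1 (3.82%).

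**Figure D2:**
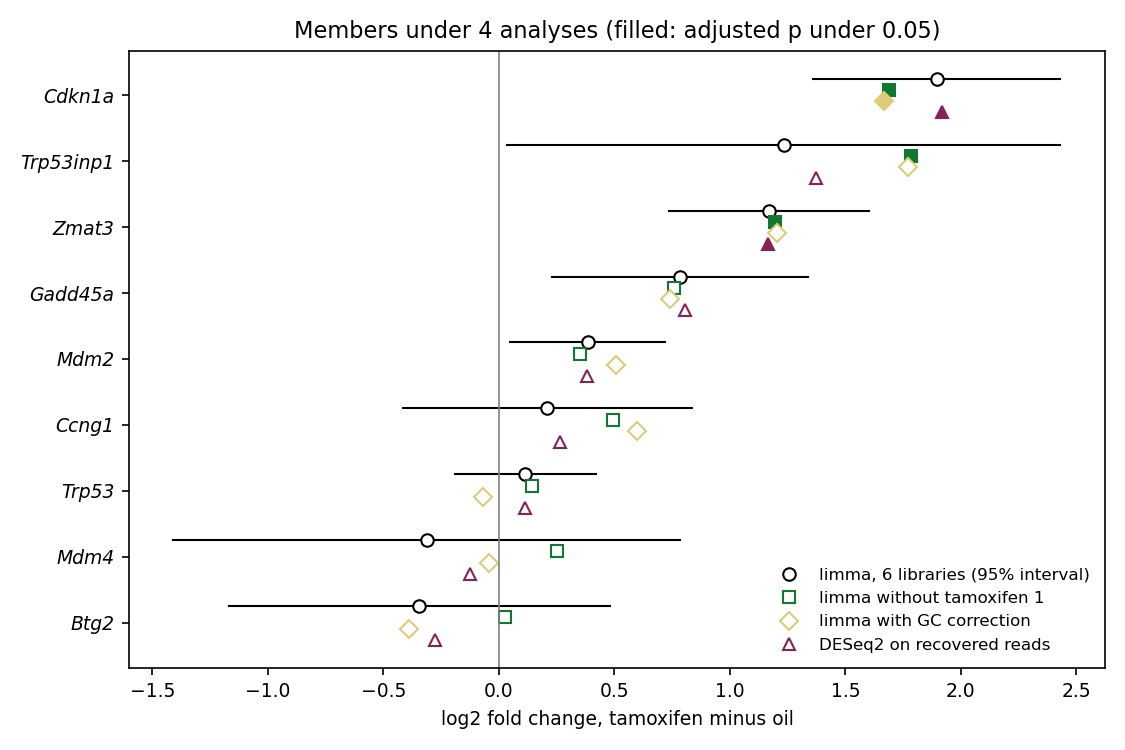
Log2 fold change of the 9 tested members, tamoxifen minus oil (horizontal axis), in 4 analyses; the line is the 95% interval of limma over 6 libraries and filled symbols have an adjusted p under 0.05. Cdkn1a and Zmat3 keep about the same value in each, from 1.67 to 1.92 and from 1.17 to 1.21, while Trp53, Mdm4 and Btg2 have values on both sides of 0.

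The members where tamoxifen 1 differed from tamoxifen 2 and 3 differed among themselves in base composition. On the log2 scale, tamoxifen 1 minus the mean of the other tamoxifen libraries was -1.69 for Mdm4, -1.65 for Trp53inp1, -1.11 for Btg2 and -0.85 for Ccng1. It was 0.62 for Cdkn1a and between -0.08 and 0.10 for Trp53, Mdm2, Zmat3 and Gadd45a. The GC content of the longest transcript was 38.8% for Trp53inp1, 40.8% for Ccng1 and 43.3% for Mdm4, the lowest of the tested members, and 54.4% for Cdkn1a, the highest. Tested genes were also put in 10 equal bins by GC content. In the bin that holds Trp53inp1 and Ccng1 the median of the same difference was -1.60, and in the bin that holds Cdkn1a it was 0.48. Btg2, with a GC content of 49.7%, had -1.11 where its bin had a median of 0.15 and a 25th percentile of -0.33. Mdm4 was also below the 25th percentile of its bin, -1.58, and Ccng1 was just above the 75th percentile of its own, -0.87.

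**Figure D3:**
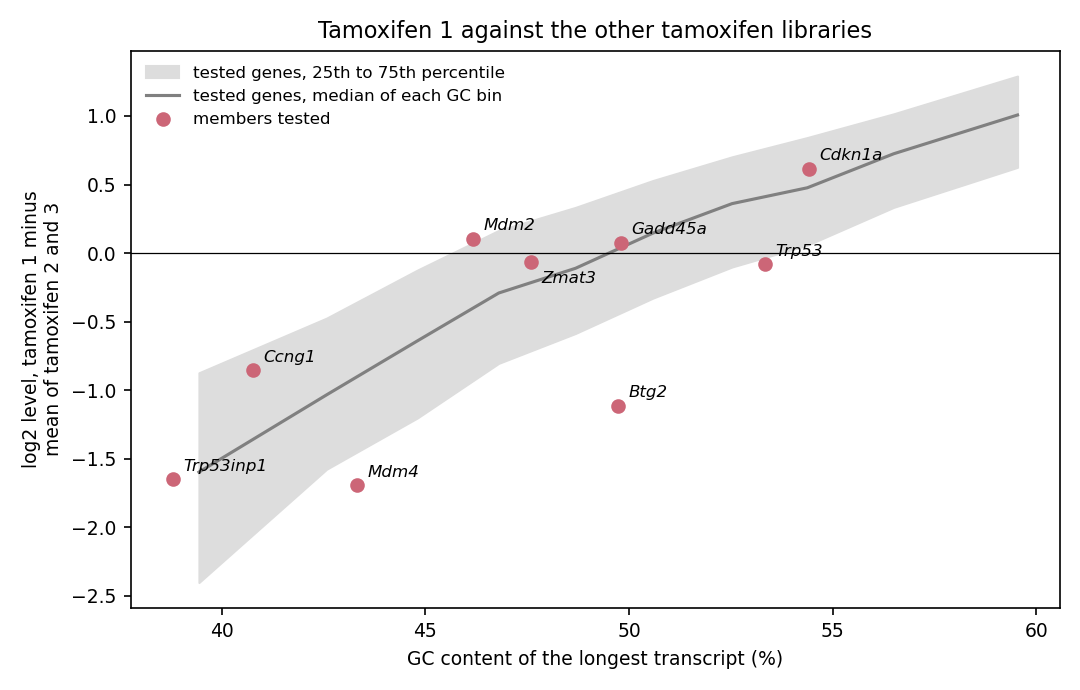
Log2 level in tamoxifen 1 minus the mean of tamoxifen 2 and 3 (vertical axis) against the GC content of the longest transcript in percent (horizontal axis), for the 9 tested members (points); the line and band are the median and the 25th to 75th percentile of the tested genes in each of 10 bins of GC content. Cdkn1a and Trp53inp1 lie near the line at 0.62 and -1.65, and Btg2 and Mdm4 lie below the band at -1.11 and -1.69.

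Exon length was the union of the exons of all annotated transcripts of a gene. The order of levels below therefore depends on the annotation too. Per kilobase of exon, the mean level in the oil libraries was 1918 ± 104 normalized counts for Trp53 and 1144 ± 63.9 for Ccng1. It was 295 ± 54.7 for Btg2, 237 ± 14.2 for Mdm4, 216 ± 16.7 for Mdm2 and 160 ± 19.7 for Cdkn1a (SD, n = 3 each). The lower end held Zmat3 at 70.2 ± 11.0, Gadd45a at 55.4 ± 4.66, Trp53inp1 at 44.4 ± 13.3 and Plk2 at 0. Neighbours whose ranges overlapped were Btg2 and Mdm4, Mdm4 and Mdm2, Zmat3 and Gadd45a, and Gadd45a and Trp53inp1. In the tamoxifen libraries Cdkn1a, at 605 ± 159 per kilobase, had a higher mean than Btg2, Mdm4 and Mdm2, at 243, 217 and 281.

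The other genes of the pathway were read from 7 lists of 114 genes in all, of which 106 were tested. None of the 106 had an adjusted p under 0.05 in limma. Beside the members, the lists that hold other p53 targets had the highest medians in limma over the 6 libraries. Of 14 cell death targets, 10 were tested. Of these, 8 were higher and 2 lower, with a median log2 fold change of 0.58, and 5 had an unadjusted p under 0.05, all higher (3.23% of all tested genes). The median was 0.35 with GC correction and 0.41 without tamoxifen 1. Bbc3, which encodes the BH3-only protein PUMA, had 348, 441 and 462 normalized counts in the oil libraries and 1166, 596 and 778 in the tamoxifen libraries (log2 fold change 0.98, limma adjusted p = 0.67, and 0.48 with GC correction). Eda2r, which encodes a member of the TNF receptor family, had 14.4, 16.4 and 26.0, and then 40.9, 94.0 and 77.3 (1.81, limma adjusted p = 0.67). Without tamoxifen 1 Eda2r was called at 2.16 (limma adjusted p = 0.0279), and DESeq2 called it on 6 libraries (adjusted p = 0.0192). Aen, an apoptosis-enhancing nuclease, had a log2 fold change of 0.71, or 0.48 without tamoxifen 1. Of the 4 below the filter, Fas had at most 2 reads in each oil library and 5, 10 and 10 reads in the tamoxifen libraries, and the others were Pmaip1, Tnfrsf10b and Dram1.

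Of 18 repair and metabolic targets, 17 were tested, 11 higher and 6 lower, with a median of 0.32. An unadjusted p under 0.05 was found for 5, all higher, the direction in which 3.23% of all tested genes passed it. Sesn2, a stress-induced regulator of mTORC1, had 502, 513 and 477 normalized counts in the oil libraries and 1663, 1031 and 953 in the tamoxifen libraries. Its log2 fold change was 1.24 (limma adjusted p = 0.61), and it was 0.99 without tamoxifen 1 (limma adjusted p = 0.00277). DESeq2 called it as well (adjusted p = 0.00356). With single libraries left out, the DESeq2 call of Sesn2 was lost without oil 1, oil 2 or oil 3, and that of Eda2r was lost without each library other than tamoxifen 1. Ephx1, an epoxide hydrolase, and Ercc5, a nuclease of nucleotide excision repair, had log2 fold changes of 1.20 and 0.62, and of 1.04 and 0.41 without tamoxifen 1. The median of this list was 0.16 without tamoxifen 1, 0.10 with GC correction and 0.60 without tamoxifen 3.

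The 27 cell cycle genes that p21 and the DREAM complex repress had the lowest median in limma over the 6 libraries, -0.18, with 20 lower and 7 higher. An unadjusted p under 0.05 was found for 7, all lower (1.24% of all tested genes), and 9 had groups that did not overlap, all lower (9.69% of all tested genes). Ccnb2, a mitotic cyclin, had 3443, 3422 and 3502 normalized counts in the oil libraries and 1513, 3032 and 2097 in the tamoxifen libraries (log2 fold change -0.70, limma adjusted p = 0.67). Tamoxifen 1 was the lowest, and all tamoxifen libraries were below all oil libraries. Cdk1, the mitotic kinase, and Kif23, a kinesin of cytokinesis, had log2 fold changes of -0.51 and -0.63. Without tamoxifen 1 Ccnb2 was at -0.45, Cdk1 at -0.40 and Kif23 at -0.41. The median of the list was -0.34 without tamoxifen 1, -0.45 with library weights and -0.08 without tamoxifen 3, where the G1 list was lower.

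No gene of the remaining 4 lists had an unadjusted p under 0.05 in the main limma test. Limma with library weights called Chek2, Cdk6 and Cdkn2c of these lists. The 15 upstream activators had a median of 0.03. Their smallest p values belonged to the checkpoint kinases Chek2 (log2 fold change -0.45) and Chek1 (-0.53) and the ribosomal protein Rpl5 (-0.38), which binds Mdm2, and without tamoxifen 1 these were -0.27, -0.16 and -0.10. The 10 negative regulators besides Mdm2 and Mdm4 had a median of 0.06. Among them were the phosphatase Ppm1d (0.44) and the ubiquitin ligases Cop1 (-0.46) and Rchy1 (-0.68). These values rested on tamoxifen 1: without it Ppm1d was at 0.19, Cop1 at -0.08 and Rchy1 at -0.03, and GC correction gave Cop1 the other sign, 0.24. Of 12 G1 cyclins, their kinases and the Rb family, 11 were tested and the median was 0.0040, with Ccne1 at 0.45, Ccne2 at -0.96 and the Rb relative Rbl1 at -0.41, and Ccnd1 was below the filter. Without tamoxifen 1 these were 0.29, -0.20 and -0.12. The median of this list was -0.17 without tamoxifen 3. Of 18 family relatives of the members, 16 were tested. Their median was -0.12, or 0.08 without tamoxifen 1 and 0.09 with GC correction, so its sign depended on both. The CDK inhibitor Cdkn2b, the polo-like kinase Plk3 and the zinc finger gene Zmat1 had log2 fold changes of 0.88, 0.67 and -1.08, and of 0.55, 0.37 and -0.59 without tamoxifen 1. Trp63 and Trp73, the relatives of Trp53, had at most 1 read in any library.

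**Figure D4:**
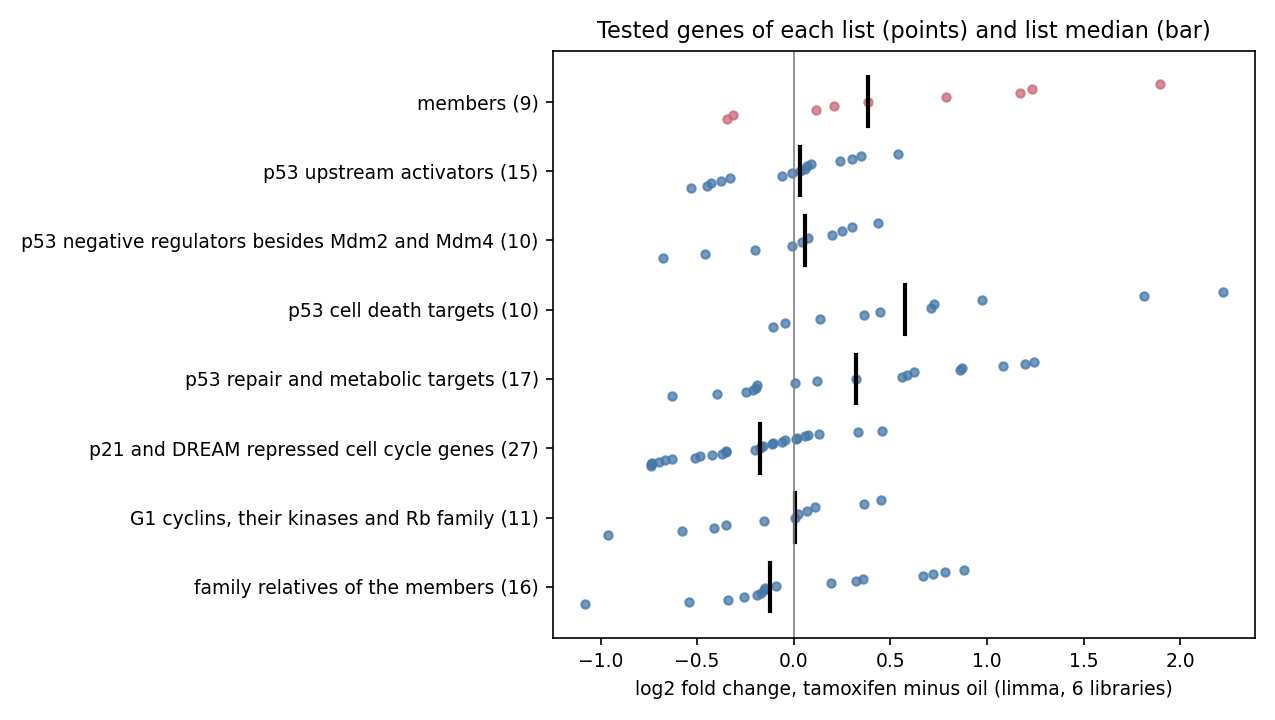
Log2 fold change, tamoxifen minus oil, of every tested gene of the members and of 7 p53 pathway lists (points, number tested in brackets), with the list median as a bar. The median is 0.39 for the members, 0.58 for the cell death targets, 0.32 for the repair and metabolic targets and -0.18 for the cell cycle genes.

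The genes whose pattern over the 6 libraries was most like that of Cdkn1a were found by Pearson's r of log2(value + 1), given here as a description over 6 libraries that share the grouping and the GC trend of tamoxifen 1. They were Sik2 (0.990), Matn1 (0.989), Gm15774 (0.986), Rrp1b (0.986) and Runx3 (0.984). Of these, Matn1, which encodes a cartilage matrix protein, had the largest log2 fold change, 3.71, with 7.19, 1.93 and 3.71 normalized counts in the oil libraries and 118, 44.5 and 46.4 in the tamoxifen libraries. Runx3, a transcription factor related to Runx1, had 0.35. Among the members, r with Cdkn1a was 0.953 for Zmat3 (rank 55 of 12287), 0.915 for Mdm2 and 0.896 for Gadd45a. It was 0.580 for Trp53, 0.531 for Trp53inp1, 0.138 for Ccng1, -0.462 for Mdm4 and -0.583 for Btg2.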

How the data were processed

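Total RNA of 6 sorted libraries (3 oil, 3 tamoxifen) was extracted with Trizol, and the labels name the Nextera DNA Flex kit. The submitters' processing notes name STAR, DESeq2 and mm10, and tool versions, annotation, strand setting and filters are not given in the sources used here. The deposited signal values are reads per gene that the authors divided by 1 size factor per library, and whole reads were recovered for 100% of values (tolerance 0.001 reads), of which 19172471 to 23785143 were found per library. Rows with no gene name (1832 of 55450, 0.0400% to 0.0614% of reads) stayed out of library sizes and tests.

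The main test was limma 3.58.1 (R 4.3.3; lmFit, eBayes with trend) on log2(value + 1), two-sided, with Benjamini-Hochberg adjustment over the 12298 genes with a value of at least 10 in at least 3 libraries, called at 0.05. Fold changes are on the log2(value + 1) scale, which understates changes of low genes. Alternatives used edgeR 4.0.16 and DESeq2 1.42.0 on recovered reads, other scalings, pseudocounts and filters, library weights, GC correction, a replicate block and leaving out each library. Scripts were tested on simulated data. Counting intervals and floors cover counting error only.

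Coordinates are those of GENCODE vM21 (GRCm38). Members, gene lists and markers were chosen with earlier results of these data known. Named genes were the members, Usp18, up to 3 genes per pathway list with the smallest unadjusted limma p, and the 5 genes closest to Cdkn1a by Pearson's r; Fas and the other genes under the filter, and Kit, Cd34, Runx1, Myb, Mpo, Elane and Ctsg, were named after their values were seen. With 3 mice per group, p-values measure the spread between these mice. One marker list is not reported here.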

Additional observations from a re-analysis of the deposited data

How the results depend on the processing

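Of the 12298 tested genes 0 were called by limma, and 550 had an unadjusted p under 0.05, among them 5 members. DESeq2 on recovered reads called 71 genes, with 2 members and 2 pathway list genes. Library weights called 782 genes, with 6 members and 28 pathway list genes, of which 10 were higher and the rest lower. Among the 28 were Ccnb2, Cdk1 and Kif23 of the cell cycle list, and Chek2, Cdk6 and Cdkn2c of other lists. GC correction called 2 genes, with 1 member. edgeR, voom, the other scalings, pseudocounts and filters called 0 genes. When libraries were left out in turn, over limma, edgeR and DESeq2, the calls were 0 to 231 genes, 0 to 4 members and 0 to 9 pathway list genes. Without tamoxifen 1 limma called 41 genes and DESeq2 231, and limma without any other single library called 0. GC correction, with or without the block, gave Trp53 a log2 fold change of -0.068. Library weights gave Mdm4 0.25. Over libraries left out, the log2 fold change ranged from -0.62 to 0.27 for Mdm4, from -0.00021 to 0.52 for Ccng1 and from -0.56 to 0.027 for Btg2. Cdkn1a, Zmat3, Mdm2, Gadd45a and Trp53inp1 kept their direction in all 31 alternatives each, and the cause of the changes was not tested. The same replicate numbers of the 2 groups did not deviate together (correlations -0.02, 0.06 and -0.15), so they were not taken as pairs. With a replicate block 0 genes were called, and the log2 fold change of Cdkn1a was 1.90 with a limma adjusted p of 0.55. Depth limits Plk2 (0 to 15 reads) and no other member.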
